A study of Mus musculus with 10 samples.

Results

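The 9 genes described here encode liver enzymes that pass amino acid carbon to pyruvate and oxaloacetate, together with the cytosolic malate dehydrogenase and an enzyme that is related to aminotransferases by descent. They were chosen by symbol: Gpt, Gpt2, Agxt, Sds, Sdsl, Got1, Got2, Mdh1 and Etnppl, 9 of the 53392 genes in the deposited table, and all 9 passed the filter on low counts. The study asked how loss of the gluconeogenic enzyme fructose bisphosphatase changes gene expression in the mouse liver. RNA was sequenced from 5 livers labelled Fbp1-deleted, from mice deficient in hepatic FBP1, and from 5 livers labelled WT. All 10 mice were on the C57BL/6 background and 24 weeks old. No label used here names the promoter or vector behind the deletion, the feeding state, the sex or the hour of collection.

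Aminotransferases carry an amino group from an amino acid to a keto acid, most often alpha-ketoglutarate, and leave the carbon skeleton of the amino acid behind as a keto acid. Alanine becomes pyruvate, aspartate becomes oxaloacetate, and serine can be turned into pyruvate directly by a dehydratase that releases ammonia. In the fasted liver these steps are known as entry points of amino acid carbon into gluconeogenesis, and the aspartate aminotransferases and malate dehydrogenases also form the malate-aspartate shuttle, which moves reducing equivalents across the mitochondrial membrane. Etnppl encodes ethanolamine-phosphate phospho-lyase, which shares the aminotransferase fold but breaks phosphoethanolamine into acetaldehyde, ammonia and phosphate, so it makes no pyruvate.

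A level is in counts-per-million (CPM) of the library after TMM scaling, a factor that evens out composition, and means are given ± SD over 5 livers. Values of single livers are listed in the order of the labels, replicates 6 to 10 for Fbp1-deleted and replicates 1 to 5 for WT. A change is the fitted log2 ratio of Fbp1-deleted over WT, and SE is its standard error. Libraries held between 17778395 and 23894812 estimated reads. A member had between 221 and 30396 reads in a library, the lowest being Sdsl and the highest Got1, so no member was near the detection limit. Fbp1 itself stood between 7.38 and 13.4 CPM in Fbp1-deleted livers and between 778 and 1050.3 CPM in WT livers. Hepatocyte markers were present in all livers, with 8 listed genes summing to between 92808 and 105248 CPM in Fbp1-deleted and between 67415 and 109147 CPM in WT livers. GEO's design text calls the livers biological replicates but gives no litter or cage, and in bulk tissue fewer cells of a type and less RNA per cell cannot be told apart.

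Of the 9 genes, 4 rose in Fbp1-deleted liver (Etnppl, Got1, Sdsl and Sds), 1 fell (Gpt) and 4 did not pass the test (quasi-likelihood F test of edgeR, threshold of 0.05 on p adjusted by Benjamini-Hochberg over the 15392 genes tested). Over all genes tested, 20.6% were called, 10.6% higher and 10% lower. The groups did not overlap for 4 of the 9 genes, against 13.5% of all genes tested. The median log2 change of the 9 genes was 0.13, and that of all genes tested was 0.01. Genes that rose were 51.5% of all calls with TMM scaling, 37.7% with unscaled library totals and 40.3% with upper quartile factors, and the directions of the 5 called members were the same under these scalings.

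**Figure D1:**
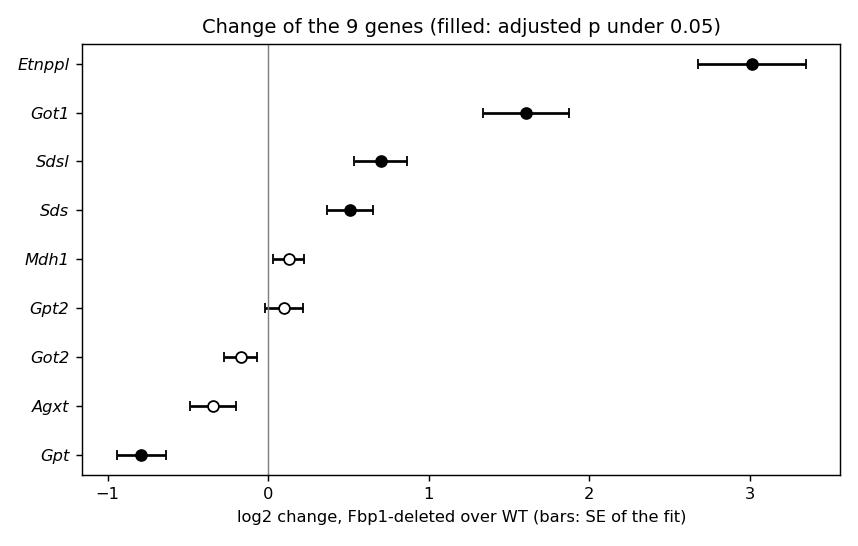
Fitted log2 change of each of the 9 genes, Fbp1-deleted over WT, with bars of 1 SE. Filled points passed the test: Etnppl at 3.01, Got1 at 1.60, Sdsl at 0.70 and Sds at 0.51 above the line, and Gpt at -0.79 below it.

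The stretches of DNA around the transcription start of the 2 members with the largest rises are shown first, those of Etnppl and Got1. Start windows of 250 bases before and 50 bases after a start were taken from RefSeq (GRCm38.p6), in which 6 of the 9 members have a window. Gpt, Sds and Sdsl have none there. Etnppl has 2 overlapping windows, of which the upstream window is printed (chr3:130617198-130617497, plus strand). The Got1 window lies on the minus strand (chr19:43524556-43524855). Etnppl and the member with the largest fall were to be shown by the naming rule, and Got1 was added after its values were seen. Capitals mark matches to the motifs searched.
Etnppl: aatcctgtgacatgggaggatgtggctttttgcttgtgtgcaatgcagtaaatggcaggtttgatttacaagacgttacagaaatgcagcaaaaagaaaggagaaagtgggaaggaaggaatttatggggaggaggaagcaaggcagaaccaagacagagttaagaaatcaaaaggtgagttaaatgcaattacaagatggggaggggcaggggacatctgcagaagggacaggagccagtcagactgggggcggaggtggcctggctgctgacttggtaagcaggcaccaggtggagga
Got1: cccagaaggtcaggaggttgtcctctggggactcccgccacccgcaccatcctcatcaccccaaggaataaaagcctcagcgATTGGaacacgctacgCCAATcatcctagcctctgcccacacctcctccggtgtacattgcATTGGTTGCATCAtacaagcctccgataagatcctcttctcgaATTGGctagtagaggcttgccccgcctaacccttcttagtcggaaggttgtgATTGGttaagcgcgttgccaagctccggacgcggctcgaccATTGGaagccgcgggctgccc

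The motifs searched on both strands were TGACGTCA (the cAMP response element), TGACG (its partial form), GTAAACA (a FOXO element), CACGTG (an E-box), TGATGNAA (an ATF4 element), AGAACA (a partial glucocorticoid element), TATAAA and CCAAT. Neither Etnppl window held any of these letters. The Got1 window held 6 matches to CCAAT, 5 of them on the opposite strand, where 37.4% of the 32851 RefSeq windows of this length held at least 1. It also held 1 match to TGATGNAA, on the opposite strand with its first base at position -102 from the start, directly beside the CCAAT match at position -107 without overlapping it. That motif was present in 3.97% of all windows. The matches are a description of these letters and show no binding.

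The alanine aminotransferase pair did not move together. Gpt (ENSMUSG00000022546.5, chromosome 15, 76695716 to 76699686, plus strand) encodes the cytosolic enzyme, whose protein leaking into blood is the clinical marker ALT. Gpt had 282, 350.0, 369, 282 and 323 CPM in Fbp1-deleted livers, against 622, 729, 453, 401 and 569 CPM in WT livers. Every Fbp1-deleted liver lay below every WT liver, and the WT livers were the more spread. The log2 change of Gpt was -0.79 (SE 0.15, adjusted p = 0.00341, edgeR), or 1.73-fold lower.

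Gpt2 (ENSMUSG00000031700.11, chromosome 8, 85492576 to 85527560, plus strand) encodes the mitochondrial alanine aminotransferase. Its level was 629, 629, 599, 647 and 842 CPM in Fbp1-deleted livers, against 529.8, 629, 699.9, 642 and 622 CPM in WT livers. The groups overlapped, and replicate 10 alone stood above the WT range. Gpt2 did not pass (log2 change 0.10, SE 0.12, adjusted p = 0.585, edgeR), and its change was -0.0031 without that replicate.

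The change of this pair relative to each other was tested on the log2 ratio of their counts within each liver, which no scaling factor touches. Ratios of 4 gene pairs were tested, with an exact two-sided permutation test over livers whose smallest possible p was 0.00794. The log2 ratio of Gpt2 over Gpt averaged 1.06 ± 0.28 in Fbp1-deleted livers and 0.20 ± 0.44 in WT livers (SD, n = 5 each). All 5 Fbp1-deleted livers lay above all 5 WT livers, with a difference of 0.86 (exact permutation p = 0.00794, adjusted over the 4 ratios 0.0159). Counted per kb of annotated exon, Gpt2 made up 52.0% ± 4.81 of the summed level of both genes in Fbp1-deleted livers and 37.6% ± 7.13 in WT livers.

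Agxt (ENSMUSG00000026272.6, chromosome 1, 93135240 to 93145421, plus strand) encodes alanine-glyoxylate aminotransferase, which uses alanine to turn glyoxylate into glycine and leaves pyruvate. Agxt had 228, 279, 365, 251 and 267 CPM in Fbp1-deleted livers, against 355, 407, 289, 301 and 412 CPM in WT livers. In 4 of 5 Fbp1-deleted livers the level was below the lowest WT liver, and replicate 8 lay inside the WT range. Agxt did not pass the test (log2 change -0.34, SE 0.14, adjusted p = 0.103, edgeR). Without replicate 8 it was -0.46 with adjusted p = 0.0191, where adjusted p over all alternatives ranged between 0.0191 and 0.237.

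**Figure D2:**
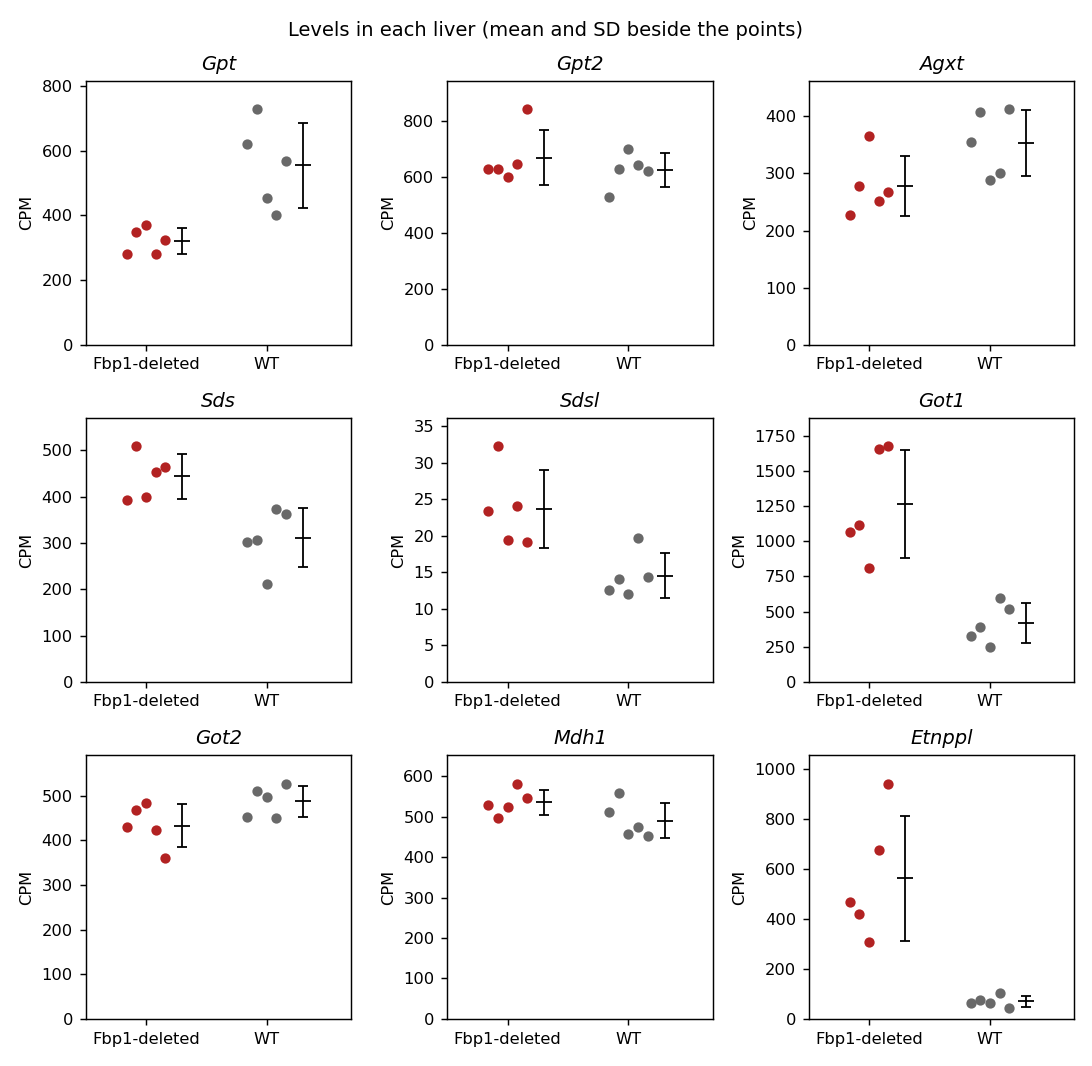
Level of each of the 9 genes in CPM (linear axis from 0) in the 5 Fbp1-deleted livers (left of each panel) and the 5 WT livers (right), with the mean and SD beside the points. The groups are apart for Gpt, Sds, Got1 and Etnppl, and overlap for the other 5 genes.

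Both serine dehydratase genes were higher in Fbp1-deleted liver. Sds (ENSMUSG00000029597.14, chromosome 5, 120476526 to 120483932, plus strand) encodes the enzyme that splits serine into pyruvate and ammonia, a periportal gene known to be induced by glucagon and by protein-rich diets. Sds had 392, 509, 400.1, 454 and 465 CPM in Fbp1-deleted livers, against 303, 306, 212, 374 and 363 CPM in WT livers. The lowest Fbp1-deleted liver lay just above the highest WT liver. The log2 change of Sds was 0.51 (SE 0.14, adjusted p = 0.0230, edgeR), or 1.43-fold higher.

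The call of Sds was lost without WT replicate 2 (adjusted p = 0.0550), without Fbp1-deleted replicate 7 (0.0561), without Fbp1-deleted replicate 9 (0.0503) and with library totals alone (0.0562), where adjusted p over all alternatives ranged between 0.00629 and 0.0562. The span of Sds overlaps Plbd2, which encodes a lysosomal protein, and an antisense gene on the opposite strand, and the library does not mark strand. Of the words of 31 bases in the annotated Sds transcripts, 24.6% also occur in other genes, 19.6% in Plbd2. Plbd2 averaged 113 ± 9.90 CPM in Fbp1-deleted livers and 99.6 ± 16.9 CPM in WT livers, with a log2 change of 0.18 (SE 0.12, adjusted p = 0.327, edgeR). The share of the Sds counts that belongs to the overlap was not tested.

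Sdsl (ENSMUSG00000029596.13, chromosome 5, 120458186 to 120472810, minus strand), the serine dehydratase-like paralog, lies 3.71 kb from Sds and is read in the opposite direction. Sdsl had 23.5, 32.3, 19.5, 24.0 and 19.1 CPM in Fbp1-deleted livers, against 12.6, 14.1, 12.0, 19.7 and 14.4 CPM in WT livers. The groups overlapped only through WT replicate 4, which stood above 2 of the Fbp1-deleted livers. The log2 change of Sdsl was 0.70 (SE 0.16, adjusted p = 0.00960, edgeR), or 1.63-fold higher, and no word of 31 bases in its transcripts occurs in another gene. The log2 ratio of Sds over Sdsl averaged 4.25 ± 0.25 in Fbp1-deleted livers and 4.41 ± 0.22 in WT livers (SD, n = 5 each), a difference of -0.16 that did not pass (exact permutation p = 0.286, adjusted over the 4 ratios 0.286).

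Of the aspartate aminotransferases, the cytosolic gene rose in Fbp1-deleted liver and the mitochondrial gene did not pass. Got1 (ENSMUSG00000025190.13, chromosome 19, 43499752 to 43524605, minus strand) encodes the cytosolic enzyme, which makes oxaloacetate from aspartate and takes part in the malate-aspartate shuttle. Got1 had 1067, 1119, 813, 1656 and 1675 CPM in Fbp1-deleted livers, against 324, 389, 249.6, 599 and 520.5 CPM in WT livers. All Fbp1-deleted livers lay above all WT livers, with replicates 9 and 10 highest and replicate 8 lowest. The log2 change of Got1 was 1.60 (SE 0.27, adjusted p = 0.00226, edgeR), or 3.04-fold higher, which placed it at rank 206 among the fitted rises of all genes tested.

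Got2 (ENSMUSG00000031672.8, chromosome 8, 95864134 to 95888547, minus strand) encodes the mitochondrial enzyme of the same reaction. Its level was 429, 468, 484, 423 and 359.6 CPM in Fbp1-deleted livers, against 452, 509.9, 497, 451 and 527 CPM in WT livers. The groups overlapped, with 3 Fbp1-deleted livers below the WT range. Got2 did not pass (log2 change -0.17, SE 0.10, adjusted p = 0.266, edgeR). Of the words of 31 bases in the annotated Got2 transcripts 30.9% occur in other genes, most of them (23.8%) in Gm10874, which had at most 0.0984 CPM in any liver.

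The log2 ratio of Got1 over Got2 averaged 1.5 ± 0.59 in Fbp1-deleted livers and -0.29 ± 0.53 in WT livers (SD, n = 5 each). The groups did not overlap, and the difference of 1.80, or 3.47-fold, passed (exact permutation p = 0.00794, adjusted over the 4 ratios 0.0159). Counted per kb of exon, Got1 made up 83.7% ± 5.46 of the pair in Fbp1-deleted livers and 60.5% ± 8.55 in WT livers. The share depends on the length used. With the length of the principal transcript, Got1 and Got2 were close in WT livers, at 202 ± 69.3 and 193 ± 13.6 CPM per kb. In Fbp1-deleted livers they stood at 615 ± 186 and 171 ± 19.1 CPM per kb.

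**Figure D3:**
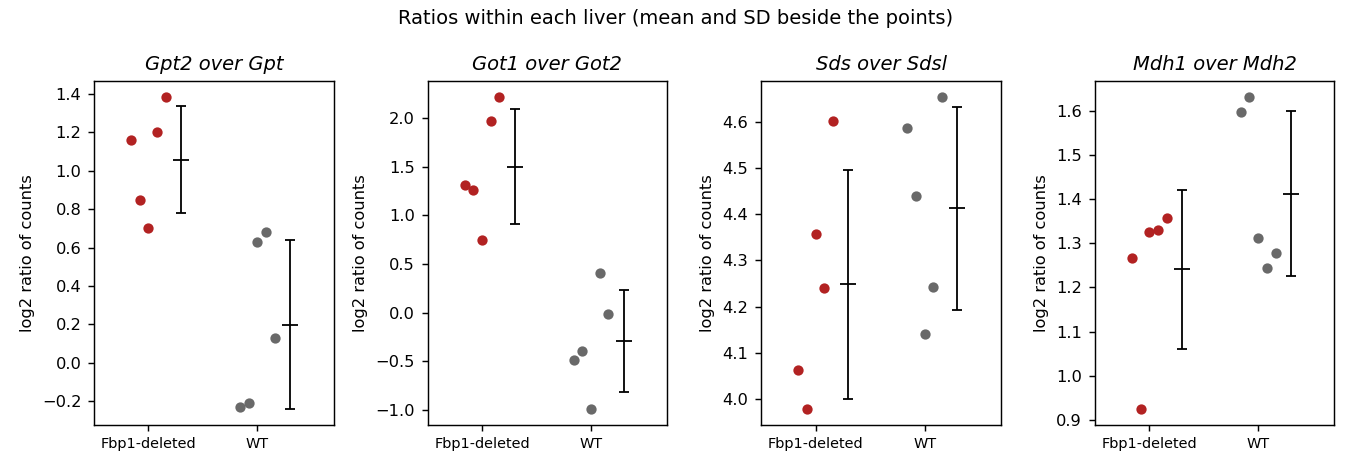
Log2 ratio of counts within each liver for 4 gene pairs, Fbp1-deleted livers left and WT livers right, with the mean and SD beside the points. The groups are apart for Gpt2 over Gpt and Got1 over Got2, and overlap for Sds over Sdsl and Mdh1 over Mdh2. The axes do not start at 0 and differ between panels.

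Mdh1 (ENSMUSG00000020321.15, chromosome 11, 21556787 to 21572367, minus strand) encodes cytosolic malate dehydrogenase, which converts oxaloacetate and malate into each other. Mdh1 had 529, 497, 524, 582 and 545 CPM in Fbp1-deleted livers, against 511, 558, 458, 473 and 452 CPM in WT livers. The groups overlapped, and the spread of Fbp1-deleted livers was the smallest among the 9 genes (coefficient of variation 5.82%). Mdh1 did not pass (log2 change 0.13, SE 0.10, adjusted p = 0.375, edgeR). Mdh2, the mitochondrial enzyme, averaged 227 ± 21.4 CPM in Fbp1-deleted livers and 184 ± 11.2 CPM in WT livers. The log2 ratio of Mdh1 over Mdh2 averaged 1.24 ± 0.18 in Fbp1-deleted livers and 1.41 ± 0.19 in WT livers (SD, n = 5 each), a difference of -0.17 that did not pass (exact permutation p = 0.262, adjusted over the 4 ratios 0.286).

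Etnppl (ENSMUSG00000019232.14, chromosome 3, 130617448 to 130637521, plus strand) had the largest change of the 9 genes. Its level was 468, 421, 307, 675 and 941 CPM in Fbp1-deleted livers, against 63.9, 75.1, 62.8, 104 and 43.0 CPM in WT livers. The lowest Fbp1-deleted liver, replicate 8, stood well above the highest WT liver, replicate 4. The log2 change of Etnppl was 3.01 (SE 0.34, adjusted p = 0.000311, edgeR), or 8.07-fold higher, at rank 46 among the fitted rises of all genes tested. A rise of at least 2-fold was called for 2.88% of all genes tested, and among the members for Etnppl and Got1.

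Levels of Etnppl and Got1 differed among livers of both groups. Etnppl varied by 44.4% and Got1 by 30.2% (coefficient of variation), and the other 7 members by between 5.82% (Mdh1) and 22.4% (Sdsl). Both genes were also the most variable members in WT livers, Etnppl at 31.9% and Got1 at 34.2%. Among Fbp1-deleted livers replicate 8 was lowest in both genes, replicates 9 and 10 were highest and replicates 6 and 7 lay between. Igfbp1, an insulin-repressed gene, had 768, 805, 304, 2003 and 1534 CPM in the same livers (replicates 6 to 10), also lowest in replicate 8 and highest in replicates 9 and 10. WT livers had 45.8, 49.9, 149.6, 146 and 56.8 CPM of Igfbp1 (replicates 1 to 5), and there the order was not shared. Igfbp1 was highest in WT replicate 3, where Got1 was lowest at 249.6 CPM. Hspa5, the chaperone that marks stress of the endoplasmic reticulum, had 2133, 1873, 512, 2099 and 630.0 CPM in Fbp1-deleted livers, low in replicates 8 and 10, against 242 to 472 CPM in WT livers. With replicates 8 and 10 both left out, a choice made after seeing the data, the log2 change was 2.90 for Etnppl, 1.62 for Got1, 0.87 for Sdsl, 0.53 for Sds and -0.87 for Gpt, and Agxt was called at -0.49 (adjusted p = 0.0316, edgeR). The part of either gene's programme in the rises was not tested.

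**Figure D4:**
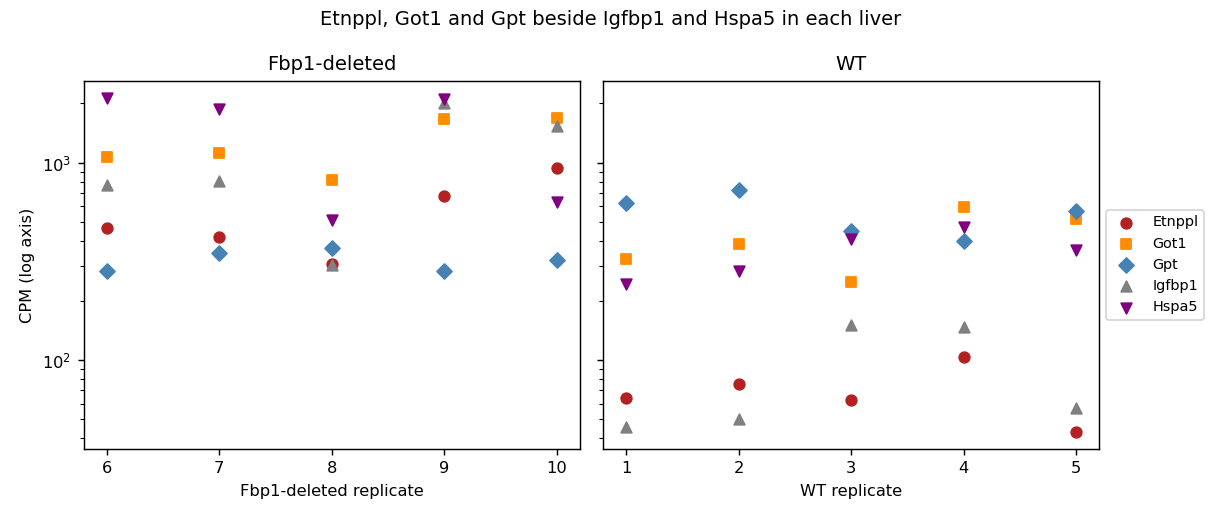
Level in CPM (log axis) of Etnppl, Got1 and Gpt beside Igfbp1 and Hspa5 in each Fbp1-deleted liver (left) and each WT liver (right). Etnppl, Got1 and Igfbp1 are lowest in Fbp1-deleted replicate 8 and highest in replicates 9 and 10, and Hspa5 is low in replicates 8 and 10.

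Genes were compared with each other per kb of the union of their annotated exons. In Fbp1-deleted liver Got1 was the highest at 499 ± 151 CPM per kb, followed by Sds at 262 ± 28.5, Mdh1 at 209 ± 12.1 and Agxt at 164 ± 30.8 CPM per kb. Gpt2 at 119 ± 17.4, Gpt at 109 ± 13.5 and Got2 at 89.7 ± 10 CPM per kb came next, of which Gpt2 and Gpt differed by less than their SD. Etnppl at 68.1 ± 30.3 and Sdsl at 15.8 ± 3.54 CPM per kb were the lowest.

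In WT liver the upper part of the order was flat. Agxt stood at 208 ± 33.9, Mdh1 at 191 ± 17.2, Gpt at 189 ± 44.7, Sds at 184 ± 38.1 and Got1 at 164 ± 56.1 CPM per kb, all within an SD of their neighbours. Gpt2 at 111 ± 10.9 and Got2 at 101 ± 7.13 CPM per kb followed, with Sdsl at 9.72 ± 2.04 and Etnppl at 8.44 ± 2.69 CPM per kb lowest. The order depends on the length used. With the length of the principal transcript in place of all exons, Gpt was highest in WT liver at 310 ± 73.3 CPM per kb and Etnppl stood above Sdsl (15.6 and 9.86 CPM per kb), while Got1 remained the highest in Fbp1-deleted liver at 615 ± 186 CPM per kb.

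**Figure D5:**
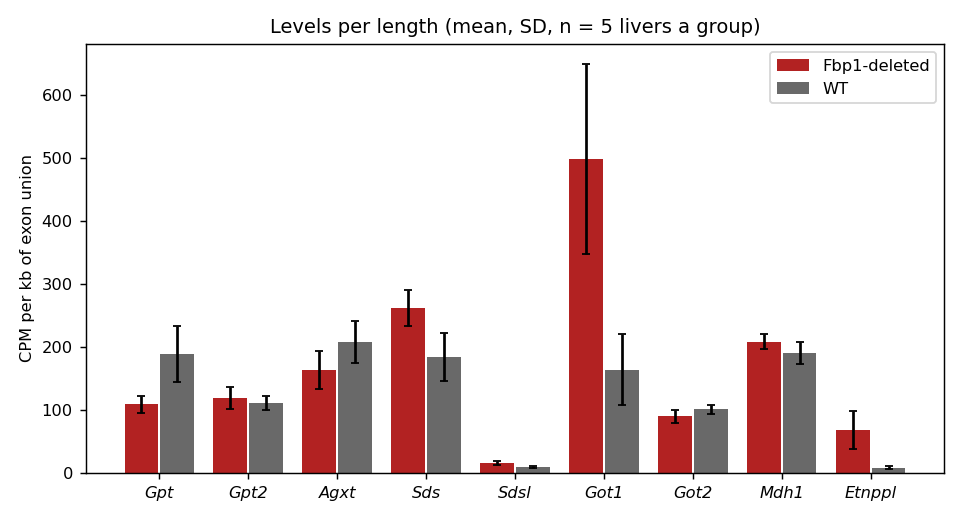
Level per kb of annotated exon (linear axis from 0) in Fbp1-deleted livers (red) and WT livers (grey), bars as means and whiskers as SD over 5 livers. Got1 stands apart in Fbp1-deleted liver at 499 CPM per kb, and in WT liver Agxt, Mdh1, Gpt, Sds and Got1 lie between 164 and 208 CPM per kb.

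Of 10 other aminotransferases tested, Tat rose, Bcat2 fell and 8 did not pass, with a median log2 change of -0.16. Those counts are near the shares over all genes tested, 10.6% higher and 10% lower, whose median log2 change was 0.01. The same shares are the background for each list below. The number that fell was 3 with library totals alone and without both Fbp1-deleted livers 8 and 10, and 2 when any of the Fbp1-deleted livers 8 and 10 or the WT livers 1 and 4 was left out and under 6 other settings. Tat, the tyrosine aminotransferase induced by glucocorticoids and glucagon, had 5181, 5319.7, 3124, 7057 and 7392 CPM in Fbp1-deleted livers, against 1102, 1456, 1917, 2546 and 1815 CPM in WT livers. It too was lowest in replicate 8 and highest in replicates 9 and 10, and its log2 change was 1.67 (SE 0.26, adjusted p = 0.00137, edgeR). Bcat2, the mitochondrial branched-chain aminotransferase, averaged 17.5 ± 4.46 CPM in Fbp1-deleted livers and 45.8 ± 11.4 CPM in WT livers.

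A further list holds genes of serine, glycine, threonine and cysteine metabolism outside the 9, including the serine synthesis genes Phgdh and Psph and the glyoxylate and glycerate genes Grhpr, Hao1 and Glyctk. Of the 16 tested, 5 fell, 1 rose (2 without Fbp1-deleted replicate 10) and 10 did not pass, with a median log2 change of -0.17. Shmt1, the cytosolic serine hydroxymethyltransferase, changed by -0.70 (SE 0.13), Gcsh, the H protein of glycine cleavage, by -0.55 (SE 0.10), and the sulfur transferases Tst and Mpst, of which Mpst releases pyruvate from mercaptopyruvate, by -0.76 (SE 0.12) and -0.75 (SE 0.15). Gldc, the decarboxylase of glycine cleavage, went the other way at 0.58 (SE 0.14). The adjusted p of the 5 genes ranged between 0.00104 and 0.0125 (edgeR).

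In a list of enzymes and carriers that make, use or transport pyruvate, oxaloacetate and related metabolites, 5 of 11 genes tested rose (10.6% of all genes tested). The others did not pass, and the median log2 change was 0.28. Pcx, which carboxylates pyruvate to oxaloacetate, averaged 867 ± 106 CPM in Fbp1-deleted livers and 555 ± 136 CPM in WT livers. Pck1, which turns oxaloacetate into phosphoenolpyruvate, changed by 1.34 (SE 0.18), and Me1, which makes pyruvate from malate with NADPH, by 1.64 (SE 0.15). Pklr, the liver pyruvate kinase, changed by 0.86 (SE 0.13). The adjusted p of the 4 genes ranged between 1.23e-05 and 0.0144 (edgeR).

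Of the other shuttle genes Mdh2 and the oxoglutarate carrier Slc25a11 were called higher, at log2 changes of 0.30 (SE 0.09, adjusted p = 0.0351, edgeR) and 0.34 (SE 0.10, adjusted p = 0.0248, edgeR), and the aspartate-glutamate carriers Slc25a12 and Slc25a13 did not pass. Leaving out any of the WT livers 1, 2, 3 and 5 or of the Fbp1-deleted livers 6, 7 and 9 ended the call of Mdh2, with adjusted p of 0.0638 to 0.0842. For Slc25a11 the same held for the WT livers 1 and 3 and the Fbp1-deleted livers 6, 7 and 9, with adjusted p of 0.0501 to 0.0657. Library totals alone, upper quartile factors and testing without a filter each ended both calls. In the list of glutamate and ammonia genes 3 of 10 rose and 1 fell (10.6% and 10% of all genes tested). Without Fbp1-deleted replicate 9 the number that rose was 1. Asl was called higher at 0.79 (SE 0.11, adjusted p = 0.0004155, edgeR) and Nags lower at -0.58 (SE 0.13, adjusted p = 0.00874, edgeR). Both calls held under all alternatives. Cps1 at 0.68 (SE 0.19) and Arg1 at 0.42 (SE 0.11) were the other genes called higher, calls lost under 5 and 3 alternatives. Glud1, the glutamate dehydrogenase that regenerates alpha-ketoglutarate, had a log2 change of 0.08 (SE 0.11, adjusted p = 0.662, edgeR).

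Among 8 tested genes around phosphoethanolamine, the substrate of Etnppl, 1 rose (10.6% of all genes tested) and 7 did not pass. Without WT replicate 4 the number that rose was 2, and 1 gene fell without Fbp1-deleted replicate 8, with upper quartile factors and with library totals alone. The gene called with all livers was Etnk2, an ethanolamine kinase, with 702, 716, 616, 697 and 904 CPM in Fbp1-deleted livers, against 388, 442, 309, 359.5 and 357 CPM in WT livers. The groups did not overlap, and the log2 change of Etnk2 was 0.97 (SE 0.13, adjusted p = 0.000229, edgeR). The levels were lowest in replicate 8 and highest in replicate 10, as for Etnppl.

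Of 12 genes known as regulators of amino acid catabolism, 2 rose, 3 fell (10.6% and 10% of all genes tested) and 7 did not pass. The number that rose was 1 when any of the Fbp1-deleted livers 6 and 9 or the WT livers 1 and 2 was left out, and 4 without Fbp1-deleted liver 8, without Fbp1-deleted liver 10 and with DESeq2. The coactivator Ppargc1a changed by 2.67 (SE 0.30), the factor Cebpa by -0.67 (SE 0.17), the glucocorticoid receptor Nr3c1 by -0.51 (SE 0.11) and the homeobox factor Prox1 by -0.62 (SE 0.13). Their adjusted p ranged between 0.000266 and 0.0126 (edgeR).

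Marker genes of liver zones and of other cell types were counted beside the members. For comparison, 10.6% of all genes tested rose and 10% fell. Of 8 periportal markers 3 rose (1 without Fbp1-deleted replicate 9), and their summed level lay between 13977 and 17119 CPM in Fbp1-deleted livers and between 8780.3 and 11251 CPM in WT livers. Pck1 alone averaged 8611 ± 812 CPM in Fbp1-deleted livers and 3401 ± 963 CPM in WT livers, and without it the sums overlapped, between 5761 and 8117 CPM in Fbp1-deleted livers and between 5264 and 7834 CPM in WT livers. Of 8 pericentral markers 2 fell (4 with DESeq2), and their sum lay between 5942 and 6681 CPM in Fbp1-deleted livers and between 7172 and 10288 CPM in WT livers. Without Cyp2e1, the most abundant of them, these sums overlapped too, between 1730 and 2316 CPM in Fbp1-deleted livers and between 2134 and 2745 CPM in WT livers. Of 8 Kupffer cell and macrophage markers 5 fell, with sums between 191 and 290.2 CPM in Fbp1-deleted and between 266 and 367 CPM in WT livers. That count was 0 when Fbp1-deleted liver 9 was left out, 1 when any of the Fbp1-deleted livers 6 and 7 or the WT livers 2 and 3 was, 3 when WT liver 1 or 5 was, and 8 without both Fbp1-deleted livers 8 and 10. Of 8 endothelial markers 1 rose (and 3 fell without Fbp1-deleted replicate 10), with sums between 209 and 336 CPM in Fbp1-deleted and between 291 and 350.1 CPM in WT livers, and of 8 stellate cell and fibroblast markers 1 rose, a call lost under most alternatives, with sums between 195 and 260 CPM in Fbp1-deleted and between 148 and 224 CPM in WT livers. Of 6 adipocyte markers only 1 passed the filter on low counts, Car3, a gene that hepatocytes also express, and it fell, while Lep was at 0. T and B cell markers summed to at most 7.77 CPM in Fbp1-deleted and 13.0 CPM in WT livers, cholangiocyte markers to at most 22.2 and 29.1 CPM, and skeletal muscle markers, with Myh4 at 0, to at most 1.5 and 2.0 CPM. Pancreas markers, with Prss1 and Cpa1 at 0, summed to at most 0.582 CPM in Fbp1-deleted and 1.26 CPM in WT livers. Their part in the changes of the 9 genes was not tested.

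For the members with the largest rise and the largest fall, the 5 genes whose deviations from their group means were most like theirs over the 10 livers were sought among 11988 genes. They are given as a description, since the best of many are shown and all share the same libraries and depth. For Etnppl they were Coq10b, St13, Arl15, Usp16 and Rab21, with Pearson r between 0.95 and 0.97 and Spearman rho between 0.90 and 0.95 (n = 10 livers). For Gpt they were Blvra, Haus7, Dhx34, Gstt1 and Hebp1, with Pearson r between 0.96 and 0.98 and Spearman rho between 0.94 and 0.99 (n = 10 livers). Between genotypes Coq10b and Arl15 rose, with log2 changes of 1.02 and 1.29. Usp16 and Rab21 were also called higher, at 0.50 and 0.31, calls lost under 4 and 11 alternatives. St13 had a log2 change of 0.07 (adjusted p = 0.655, edgeR) that turned to -0.021 with library totals alone and to -0.0066 with upper quartile factors. Of the genes near Gpt, Gstt1 was called lower at -0.48, and Blvra at -0.56, a call lost under 4 alternatives. Haus7, Dhx34 and Hebp1 did not pass, though Hebp1 was called lower under 5 alternatives.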

How the data were processed

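Snap-frozen livers of 5 Fbp1-deleted and 5 WT mice were profiled by RNA sequencing of mRNA libraries that do not keep the strand, per the labels' protocols. Estimated counts of each gene in each liver were deposited as whole numbers (0 values were not whole). Per the submitters' processing notes CASAVA and Salmon were used with GRCm38. Settings, and any adjustment for transcript length, are not given in the sources used. Reads that fit several transcripts are shared out by estimation in Salmon, which adds an error to overlapping genes that replicates do not show.

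Identifiers were matched to GENCODE M21 (52175 with version, 1180 with another version, 37 unmatched). The test was that of edgeR 4.0.16 (R 4.3.3): filterByExpr, TMM, robust quasi-likelihood F test of Fbp1-deleted against WT without covariates, Benjamini-Hochberg over 15392 genes. SE is the log2 change over the square root of F. Ratios used a prior count of 0.5 and an exact permutation test (scipy 1.17.1). No pair of libraries in a group differed by less than a chi-square of 16.2 per degree of freedom, so none was treated as a duplicate. The fit was tested on simulated data.

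Alternatives were RLE, upper quartile and no scaling factors, no filter, a filter of 1 CPM in 5 libraries, DESeq2 1.42.0, limma-voom (limma 3.58.1), edgeR without robust shrinkage, 1 surrogate variable (sva 3.50.0), the 4 genes with on average above 1% of counts taken out, and each library left out. The members and gene lists were chosen with earlier results of these data known. The text names all members and, from each list, the called genes with the smallest adjusted p and those against the direction of their list, with fixed landmarks.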

Additional observations from a re-analysis of the deposited data

Results flagged for a closer look

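Gpt2 in Fbp1-deleted livers was marked because replicate 10, at 842 CPM, lay far from the other 4 livers, which stood between 599 and 647 CPM. The log2 ratio of Mdh1 over Mdh2 in Fbp1-deleted livers was marked because replicate 7, at 0.92, lay far below the other 4. In each case the gap to the nearest liver exceeded 0.71 of the range of its group. Of 26 groups of 5 livers examined in this way, 2 were marked, and chance marks about 1 in 20 groups.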

How the results depend on the processing

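No paired analysis was possible because no litter or cage is given that would link livers of the 2 groups. The calls of Etnppl, Got1, Sdsl and Gpt held under all 21 alternatives run, with log2 changes between 2.74 and 3.20, 1.47 and 1.77, 0.57 and 0.87, and -0.89 and -0.67. Without single livers the number of members called higher lay between 3 and 4 and that called lower between 1 and 2. The 2 came without Fbp1-deleted replicate 8, and also without both Fbp1-deleted livers with low Hspa5 (2 lower, a choice made after seeing the data), when Agxt was called. Members called higher were 3 with library totals alone, when Sds was lost. Over all genes, leaving out single livers gave between 1066 and 2060 higher and between 1019 and 1858 lower, with 1066 higher without Fbp1-deleted replicate 9, and 1086 higher and 1019 lower without replicate 6. The ratios Gpt2 over Gpt and Got1 over Got2 passed in all 11 alternatives, with differences between 0.75 and 0.98 and between 1.62 and 1.98, and the ratios Sds over Sdsl and Mdh1 over Mdh2 passed in none. Gpt2 turned to -0.0031 without Fbp1-deleted replicate 10 (between -0.0031 and 0.14 without single livers), Glud1 to -0.00999 with library totals alone, and St13 to -0.0207 with library totals alone and to -0.0066 with upper quartile factors. None of these had passed the test. The causes of these shifts were not tested. Sdsl, at 221 to 579 reads a library, was the member with the least depth.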
